A study of Mus musculus with 40 samples.

Results

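The 40 genes described here are the protein-coding genes whose symbols start with Psma, Psmb, Psmc or Psmd followed by a digit, out of 47643 genes in the deposited tables. By this rule 44 genes were found in the GENCODE M21 annotation, of which 4 pseudogenes were left out. The 40 genes comprise the 7 subunits of the alpha ring (*Psma1* to *Psma7*), the 7 subunits of the constitutive beta ring (*Psmb1* to *Psmb7*), the 3 immunoproteasome subunits (*Psmb8*, *Psmb9*, *Psmb10*), 2 tissue-restricted core subunits (*Psma8*, known from testis, and *Psmb11*, known from thymus), the 6 ATPases of the regulatory particle (*Psmc1* to *Psmc6*), 11 non-ATPase subunits of that particle, and 3 chaperones of its assembly (*Psmd5*, *Psmd9*, *Psmd10*). The rule also takes *Psmc3ip*, a meiotic recombination factor that shares the letters of the symbol but is no proteasome subunit, which leaves 39 proteasome genes.

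Tissue RNA from 2 brain regions, hippocampus and frontal cortex, was sequenced. The animals were outbred Swiss Webster mice, raised germ-free and labelled wild-type, that received the stool of human donors and ate standard chow. Each of 10 donors gave stool before the ketogenic diet (pre-KD) and on it (post-KD), which makes 20 cohorts of recipients and 10 libraries for each region and condition. According to the methods, the mice were 6 to 8 weeks old females, tissue was taken on day 4 after colonization, and each library holds RNA pooled from 6 mice. Seizure testing in the study fell on the same day, and whether the sequenced mice were tested is not given in the sources used here. The spread between libraries is therefore a spread between cohorts, and the mice of a pool are not seen singly.

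The 26S proteasome degrades proteins tagged with ubiquitin. Its core particle stacks alpha rings, which gate the entrance, around beta rings, which carry the caspase-like (*Psmb6*), trypsin-like (*Psmb7*) and chymotrypsin-like (*Psmb5*) sites, and in immune cells or under interferon these are exchanged for *Psmb9*, *Psmb10* and *Psmb8*, which favour peptides for antigen presentation. The regulatory particle binds ubiquitin chains, removes them and unfolds the substrate with its ATPase ring, and in neurons the complex takes part in the turnover of synaptic proteins.

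Between 1140756 and 2095352 reads per library were counted on genes, and 3251 to 6228 of them, 0.266% to 0.331%, fell on the 40 genes. The regions carried their labels: 5 of 6 hippocampal marker genes were higher in the hippocampus and 5 of 7 cortical ones higher in the frontal cortex at an unadjusted p under 0.05, while *Fezf2*, also on the cortical list, was higher in the hippocampus (log2 difference 0.88, adjusted p = 0.00785, edgeR). A single nuclear RNA locus, Gm42418, took 8.63% to 18.02% of the counts. Y-linked transcripts of 4 genes summed to between 79.0 and 179 CPM (read counts scaled to a common library size) in 8 libraries, the cohorts of 2 donors in both conditions and both regions, and to at most 15.8 CPM in the other 32, although the methods give female recipients. All 4 lay higher in post-KD frontal cortex by point estimate (median log2 difference 0.79), with unadjusted p of 0.0652 and above (edgeR).

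As a regulatory context, the 250 bases before the RefSeq start (build GRCm38.p6, 5′ to 3′ on the gene's strand) are shown for selected members. These are the constitutive catalytic subunits *Psmb5* (chr14:54617996-54618245, minus strand) and *Psmb6* (chr11:70525107-70525356, plus strand) and the ATPase gene *Psmc1* (chr12:100109952-100110201, plus strand). Capitals mark the antioxidant response element TGACNNNGC, the site bound by factors of the *Nfe2l1* and *Nfe2l2* family, searched on both strands.
Psmb5: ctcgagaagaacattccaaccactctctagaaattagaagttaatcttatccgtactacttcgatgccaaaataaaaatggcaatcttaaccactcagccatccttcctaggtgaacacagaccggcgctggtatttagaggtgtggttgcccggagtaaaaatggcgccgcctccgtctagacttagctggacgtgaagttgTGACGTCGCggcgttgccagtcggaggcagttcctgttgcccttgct
Psmb6: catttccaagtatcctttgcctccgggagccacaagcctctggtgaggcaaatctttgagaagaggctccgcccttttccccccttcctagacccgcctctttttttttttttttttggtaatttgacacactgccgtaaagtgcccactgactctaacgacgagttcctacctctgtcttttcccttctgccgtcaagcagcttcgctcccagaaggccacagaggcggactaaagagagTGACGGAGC
Psmc1: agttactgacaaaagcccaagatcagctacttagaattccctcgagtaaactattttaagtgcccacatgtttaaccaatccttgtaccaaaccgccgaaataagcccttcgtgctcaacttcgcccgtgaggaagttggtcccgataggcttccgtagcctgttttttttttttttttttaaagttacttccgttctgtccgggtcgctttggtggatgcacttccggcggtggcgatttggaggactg
The element ended 38 bases before the start in *Psmb5* and directly at it in *Psmb6*, and these letters were not in the window of *Psmc1*. It was found in 5 of the 33 members with a promoter window (15.2%), the others being *Psmc6*, *Psmd9* and *Psmd12*, against 10.7% of 16386 protein-coding promoters. The CCAAT box was found in 14 of 33 (42.4% against 36.0% of all promoters), among them 5 of the 7 alpha ring genes. The interferon-stimulated response element (GAAA, any 2 bases, GAAA) was found in 3 of 33 (9.09% against 3.08%), in *Psmb3*, *Psmd4* and *Psmd9* and in none of the 3 immunoproteasome windows. The windows of *Psmb8* and *Psmb9* lie inside the gene as annotated by GENCODE, so the bases before those gene starts were not searched. Each match is a description of letters in these windows.

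Most core and regulatory genes had counts in every library. The exceptions, beside the immune and tissue-restricted subunits and *Psmc3ip*, were *Psmb2* and *Psmb5*, at 0 in 2 libraries each, *Psmc6* in 1 and *Psmd10* in 3. Levels are TMM-normalized CPM, divided by the length of the principal mRNA in kilobases where genes are compared with each other. Per kilobase, the mean over 40 libraries was highest for the alpha subunit *Psma7* (175), followed by the ATPases *Psmc1* (166) and *Psmc3* (131), the beta subunit *Psmb4* (105), and *Psmd4* (103), a ubiquitin receptor, and *Psmd7* (100.3), the partner of the deubiquitinating subunit. The proteins of the rings are assembled in equal numbers, but their transcripts were not: within the alpha ring the levels per kilobase ran from 12.5 for *Psma5* to 175 for *Psma7*, within the constitutive beta ring from 15.2 for *Psmb2* to 105 for *Psmb4*, within the ATPase ring from 22.5 for *Psmc6* to 166 for *Psmc1*, and among the 11 non-ATPase subunits from 27.6 for *Psmd11* to 103 for *Psmd4*. The chaperones *Psmd10*, *Psmd9* and *Psmd5* were low, at 12.7, 6.85 and 6.75. *Psma8* had 5 counts, in 1 of 40 libraries, and *Psmb11* had 11 counts in 3 libraries, while *Psmc3ip* had 44 counts in 8. A library with no count allows up to 3 counts, which is 1.43 to 2.63 CPM at these totals, and this covers counting error only.

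**Figure D1:**
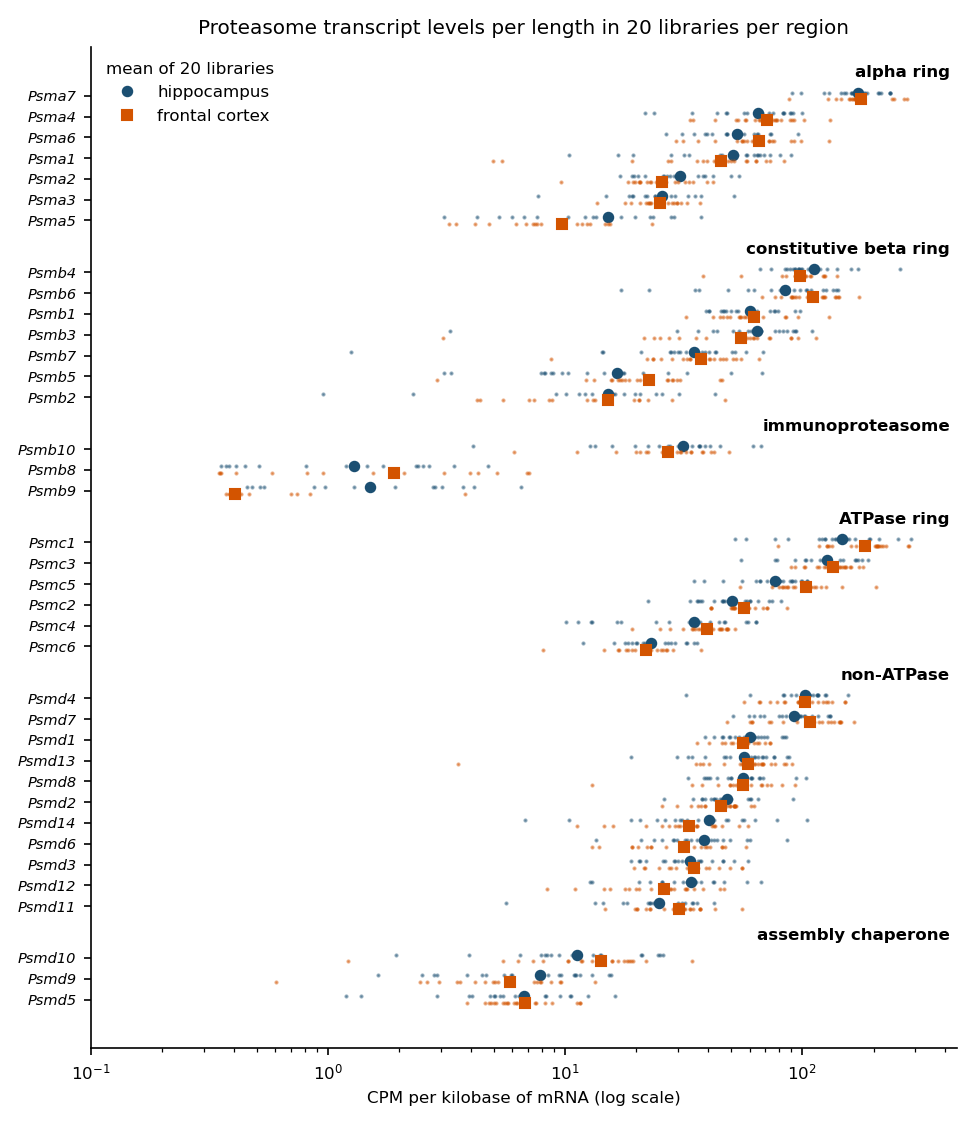
Level of 37 proteasome genes in CPM per kilobase of mRNA (log axis), grouped by their place in the complex. Large symbols are means of 20 libraries (circles, hippocampus; squares, frontal cortex), and small dots are single libraries, those at 0 not drawn; *Psma8*, *Psmb11* and *Psmc3ip* are left out. The means run from 0.404 (*Psmb9*, frontal cortex) to 185 (*Psmc1*, frontal cortex).

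Some levels within the rings carry a limit from the sequence. Reads of 69 bases were used, and the share of 69-base stretches of the mRNA that also occur in another annotated gene was 44.0% for *Psmb5*, 43.2% for *Psma5*, 38.0% for *Psmb3*, 25.1% for *Psmb7* (shared with its neighbour *Nek6*), 21.5% for *Psma3* and 19.9% for *Psma4*, mostly with processed pseudogenes. Such reads may not have been assigned by the authors' counting, so the levels of these members are uncertain. *Psmb2* (15.2 per kilobase) and *Psmc6* (22.5), the lowest of their rings, shared none, and *Psmb6* shared 0.137%. *Psmb9* shared 11.2% of its stretches with *Tap1*, the peptide transporter gene that overlaps it on the opposite strand, and strand use in counting is not given in the sources used here. Comparison per length further assumes reads from the whole mRNA, as a TruSeq library gives and a 3′ tag library does not, and both kinds of kit are named in the study's methods.

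Over the 29 members that averaged at least 50 counts, the coefficient of variation between libraries had a hippocampal median of 35.2% and a frontal cortical one of 30.8%, beside 38.6% and 31.2% over all 4653 and 4973 genes of that depth. This was a median of 3.82 and 3.69 times what counting error alone gives. It was lowest for *Psmd1*, a scaffold subunit of the regulatory particle, in the frontal cortex (17.7%) and highest for *Psmd14*, the deubiquitinase, in the hippocampus (58.3%). The summed level of all 40 members, which as a sum over many genes varies less than a single one, had a coefficient of variation of 7.46% over the 40 libraries and lay between 2507 and 3472 CPM with a median of 2950 CPM.

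Summed by place in the complex, pre-KD and post-KD libraries overlapped in each region. In hippocampus the alpha ring averaged 531 ± 51.1 CPM (SD, n = 10) with pre-KD stool and 532 ± 83.2 CPM with post-KD stool (in this order also in the pairs that follow), and 512 ± 78.2 and 541 ± 77.1 CPM in frontal cortex. The constitutive beta ring averaged 454 ± 85.8 and 395 ± 54.2 CPM in hippocampus and 426 ± 46.4 and 443 ± 35.7 CPM in frontal cortex. The ATPase ring averaged 748 ± 235 and 721 ± 63.7 CPM in hippocampus and 876 ± 155 and 842 ± 122 CPM in frontal cortex, and its wide spread in pre-KD hippocampus reached down to 385 CPM. The non-ATPase subunits averaged 1123 ± 52.0 and 1155 ± 98.0 CPM in hippocampus and 1105 ± 144 and 1152 ± 79.7 CPM in frontal cortex. The 3 immunoproteasome genes together averaged 42.1 ± 23.5 and 48.5 ± 16.8 CPM in hippocampus and 42.1 ± 17.95 and 36.6 ± 17.5 CPM in frontal cortex.

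**Figure D2:**
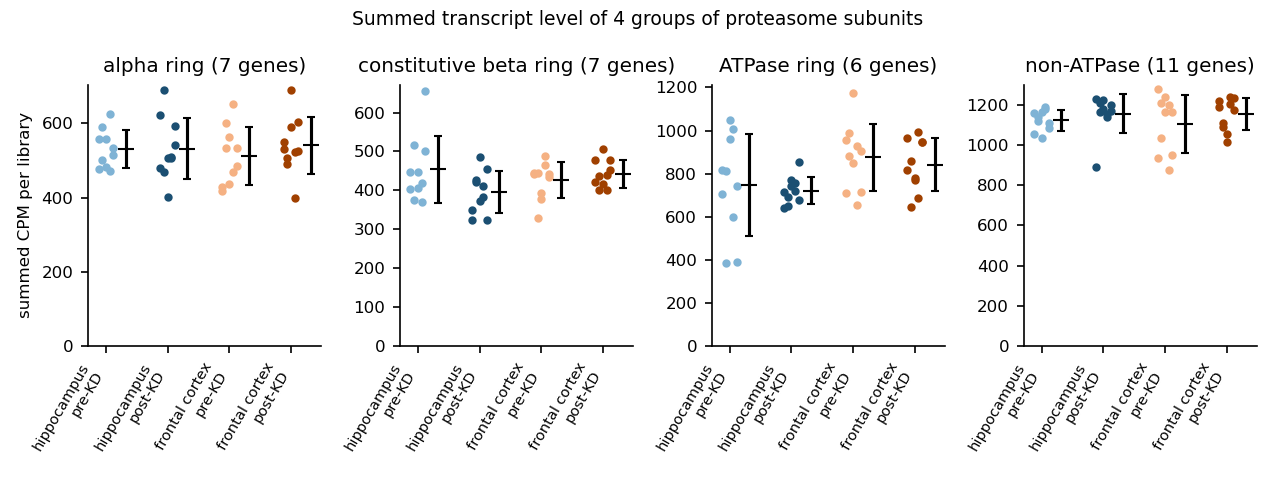
Summed CPM of the genes of 4 subunit groups in each of 40 libraries (dots), by region and condition, with mean and SD of 10 libraries beside them (black). Within each region pre-KD and post-KD libraries overlap in all 4 groups, and the ATPase ring shows the widest spread, from 385 CPM in pre-KD hippocampus to 1174 CPM in pre-KD frontal cortex.

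In the hippocampus, no proteasome gene passed the test of post-KD against pre-KD. Of 40 members, 39 had at least 10 counts over the 20 libraries and were tested (edgeR, quasi-likelihood). None reached an unadjusted p under 0.05, the threshold the study used, where 10.1% of the 17529 genes tested did, and none passed after Benjamini-Hochberg adjustment, where 0.0057% of all genes did. The 10.1% includes many genes of few counts: among the 9509 genes that edgeR's filterByExpr kept, 2.32% reached that p, with 0 of the 35 members kept. The log2 difference, post-KD minus pre-KD, was above 0 for 17 members and below 0 for 22, with a median of -0.03 beside -0.01 over all genes tested. All 7 constitutive beta ring subunits were lower in post-KD by their point estimate, from -0.01 for *Psmb6* to -0.43 for *Psmb5*, with a median of -0.24 and unadjusted p of 0.0695 and above. However, *Psmb6* lay at 0.02 with DESeq2 and at 0.04 with the donor as a block, and *Psmb5* lay at 0.11 without donor 5. The alpha ring (4 higher, 3 lower), the ATPase ring (2 higher, 4 lower), the non-ATPase subunits (6 higher, 5 lower), the immunoproteasome (2 higher, 1 lower) and the chaperones (1 higher, 2 lower) had medians between -0.07 and 0.21. These medians moved with the method: with limma-voom the chaperones lay at -0.43 (0 higher, 3 lower), the ATPase ring at -0.21, the immunoproteasome at 0.52 and the alpha ring at 0.10, and the non-ATPase subunits had 4 higher and 7 lower. With the donor as a block the chaperones lay at -0.21, the immunoproteasome at 0.35, the alpha ring at 0.15 and the constitutive beta ring at -0.32. For 28 of the 35 members that averaged at least 10 CPM the 95% interval of the difference lay within 1 log2 unit of 0, and for 7 within 0.5.

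The members nearest to the threshold in the hippocampus are named here although they were chosen after their values were seen. *Psma4*, an alpha ring subunit, lay at 39.8, 93.1 and 117 CPM (lowest, median and highest of 10) in pre-KD and at 25.4, 61.2 and 96.7 CPM in post-KD libraries. The ranges overlapped, and 8 of 10 donors had the lower value in post-KD (log2 difference -0.51 ± 0.26 SE, unadjusted p = 0.0565, adjusted p = 0.531, edgeR). *Psmb4*, a beta ring subunit without a catalytic site, lay at 109, 120 and 305 CPM in pre-KD and at 78.7, 110 and 189 CPM in post-KD libraries, with 6 of 10 donors lower in post-KD (-0.37 ± 0.20, unadjusted p = 0.0695, adjusted p = 0.601, edgeR). *Psma4* came under the unadjusted threshold with DESeq2 (p = 0.0372), with limma-voom (p = 0.0280) and without donor 2, 6 or 10 (p = 0.0456, 0.0189 and 0.0300), and *Psmb4* without donor 3 or 9 (p = 0.0233 and 0.0348), whereas the adjusted p of both stayed at 0.278 and above in all alternatives run. With limma-voom *Psmc3* and *Psmd1* came under it beside *Psma4*, together 7.69% of members where 5.49% of all genes did.

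In the frontal cortex, *Psmb6*, the caspase-like subunit, was lower and *Psmd11*, a lid subunit that clamps the regulatory particle to the core, was higher in post-KD cohorts at an unadjusted p under 0.05, and neither passed after adjustment over all genes. These are 2 of 38 members tested, where 9.68% of 17873 genes reached that p (5.01% higher, 4.68% lower) and 0.0056% passed after adjustment (edgeR). Among the 10033 genes kept by filterByExpr the share was 4.06%, with the same 2 members of 35, and with DESeq2 *Psma5* was added, 7.89% of members where 4.85% of all genes did. *Psmb6* lay at 72.4, 105 and 139 CPM in pre-KD and at 54.3, 73.1 and 98.7 CPM in post-KD libraries (lowest, median and highest of 10). Its ranges overlapped, with 9 of 10 donors lower in post-KD (log2 difference -0.40 ± 0.17 SE, unadjusted p = 0.0256, adjusted p = 0.354). *Psmd11* lay at 42.0, 69.6 and 99.2 CPM in pre-KD and at 57.4, 101 and 158 CPM in post-KD libraries. Again the ranges overlapped, with 9 of 10 donors higher in post-KD (0.44 ± 0.19, unadjusted p = 0.0198, adjusted p = 0.299, edgeR), and 13.6% of its 69-base stretches occur in another gene. Without donor 1 or 9, *Psmb6* had p = 0.0634 and 0.0791, and without donor 3 or 10, *Psmd11* had p = 0.0804 and 0.0502. Of 4 blood markers tested, the hemoglobin genes *Hba-a1* (0.49, p = 0.00163) and *Hbb-bs* (0.41, p = 0.00691, both unadjusted, edgeR) were also higher in post-KD frontal cortex and the other 2 lay below 0 without passing, the list summing to 390 to 1156 CPM in pre-KD and 548 to 1390 CPM in post-KD libraries, with no count of *Hba-a2*. Their part in the values of *Psmb6* and *Psmd11* was not tested.

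In the hippocampus the same genes did not reach the threshold. There *Psmb6* lay at 18.02, 70.4 and 114 CPM in pre-KD and at 13.7, 71.1 and 111 CPM in post-KD libraries (log2 difference -0.01 ± 0.30 SE), and *Psmd11* at 16.005, 68.5 and 97.4 CPM and at 38.2, 76.1 and 121 CPM (0.20 ± 0.27). The difference between the regions in the change was 0.46 ± 0.36 for *Psmb6* (unadjusted p = 0.205) and -0.24 ± 0.36 for *Psmd11* (p = 0.502, edgeR), so a difference between regions was not detectable for either.

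Over all 38 members tested in the frontal cortex the directions were even, 19 above and 19 below 0, with a median log2 difference of 0.01, the same as over all genes tested (0.01). The alpha ring had 5 higher and 2 lower, the constitutive beta ring 4 and 3, the ATPase ring 1 and 5, the non-ATPase subunits 5 and 6, and the immunoproteasome 0 and 3. With limma-voom the constitutive beta ring had 6 and 1, the alpha ring 4 and 3 and the ATPase ring 2 and 4, and with the donor as a block the constitutive beta ring had 5 and 2, the ATPase ring 2 and 4 and the non-ATPase subunits 6 and 5. All 3 chaperones were above 0 by point estimate, by 0.20 to 0.30, with unadjusted p of 0.395 and above, and *Psmd10* lay at -0.07 with limma-voom. For 30 of 35 members averaging at least 10 CPM the 95% interval lay within 1 log2 unit of 0, and for 15 within 0.5. The ATPases *Psmc1* (-0.14 ± 0.14) and *Psmc5* (-0.02 ± 0.16) were among these narrow ones.

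**Figure D3:**
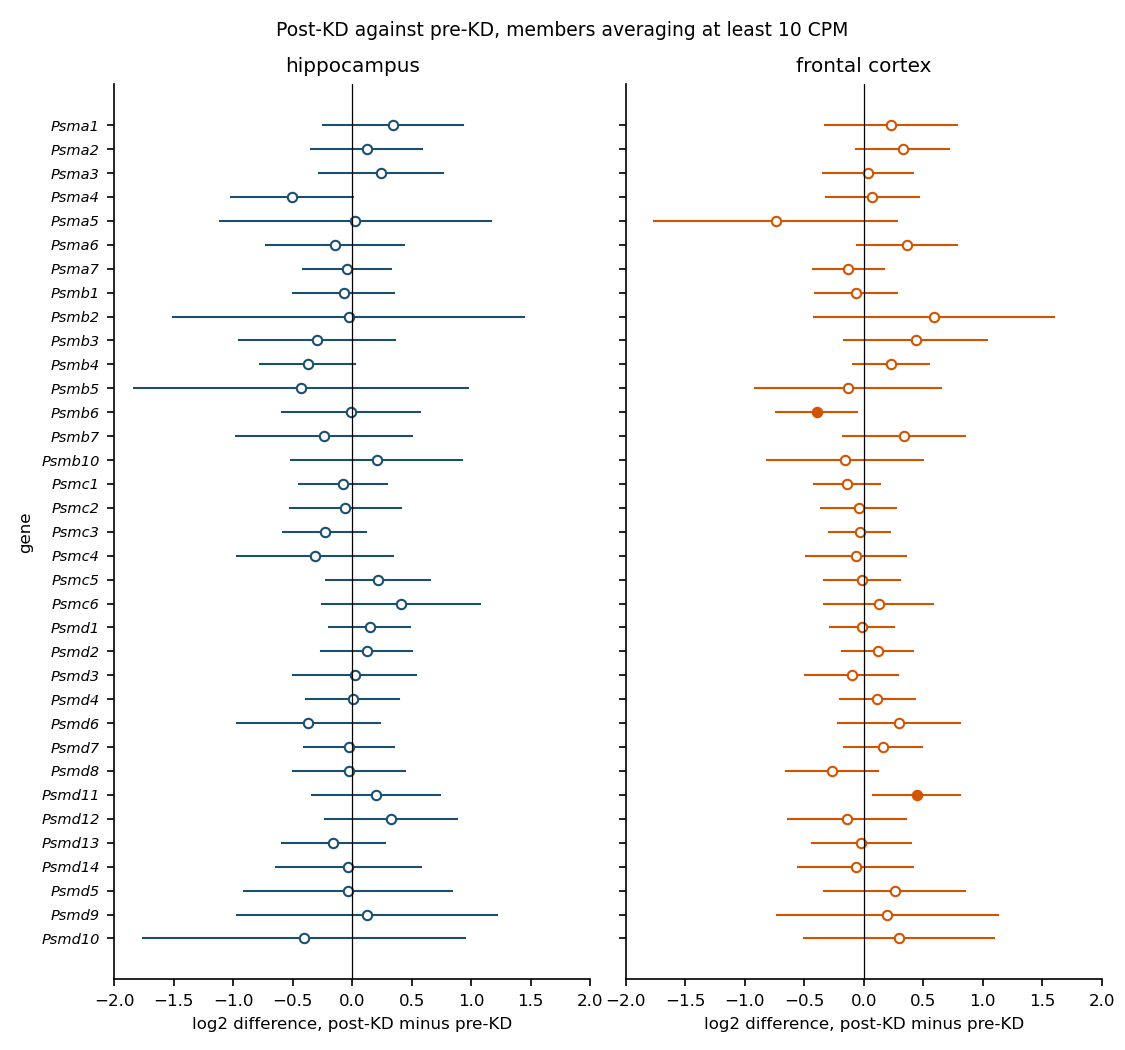
Log2 difference, post-KD minus pre-KD, with its 95% interval (lines) for the 35 members averaging at least 10 CPM, in hippocampus (left) and frontal cortex (right), 10 libraries per condition. Filled symbols mark an unadjusted p under 0.05 (*Psmb6* and *Psmd11* in frontal cortex), open symbols all others.

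Whether the change differed between the regions was tested in a fit of all 40 libraries that held cohort terms. In simulated data this fit passed 1% of changes of 1 log2 unit after adjustment (edgeR). Of 39 members tested, 1 reached an unadjusted p under 0.05, where 2.22% of 19422 genes did (1.35% in its direction), and 0 passed after adjustment, where 0.0154% did (edgeR). This was *Psmb4*, at -0.37 in hippocampus against 0.23 ± 0.16 in frontal cortex, where its values were 45.3, 113 and 166 CPM in pre-KD and 110, 119 and 148 CPM in post-KD libraries. The difference of these changes was -0.62 ± 0.28 (unadjusted p = 0.0266, adjusted p = 1), and *Psmb4* is named after its value was seen. It had p = 0.0899, 0.0642, 0.0822 and 0.0663 without donor 1, 2, 5 or 6 and 0.0647 with limma-voom. *Psmb3* (-0.97 ± 0.50, unadjusted p = 0.0548) came under the threshold without donor 4, 6, 7 or 8 (p = 0.0153, 0.0441, 0.00938 and 0.0423). *Psma4* (-0.60, p = 0.0891) did so without donor 9 or 10 (p = 0.0443 and 0.0451), with DESeq2 (p = 0.0372) and, as the single member, with limma-voom (p = 0.0474). In 6 of 7 constitutive beta ring genes the hippocampal change was the lower one, with a median difference of -0.62 beside -0.07 over all genes, and the exception was *Psmb6*. This includes *Psmb1* at -0.00, which lay above 0 without the cohort block.

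The catalytic subunits and their immune counterparts were compared gene by gene. *Psmb5* lay at 2.97, 10.2 and 61.1 CPM in pre-KD and 0, 7.62 and 45.02 CPM in post-KD hippocampus, and at 2.58, 16.9 and 41.4 CPM and 11.05, 17.7 and 26.7 CPM in frontal cortex. Its hippocampal SD was 101% and 109% of the mean, and post-KD against pre-KD gave -0.43 ± 0.72 in hippocampus and -0.13 ± 0.40 in frontal cortex. *Psmb7* lay at 1.45, 44.6 and 79.6 CPM and 16.7, 34.9 and 66.9 CPM in pre-KD and post-KD hippocampus, and at 10.1, 38.4 and 59.1 CPM and 25.6, 50.8 and 76.6 CPM in frontal cortex. It was higher in post-KD frontal cortex in 9 of 10 donors without passing the test (0.34 ± 0.26, unadjusted p = 0.199, adjusted p = 0.883, edgeR).

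Of the immune subunits, *Psmb10* had a level near the one counted for *Psmb7*, its constitutive counterpart, and *Psmb8* and *Psmb9* were near the detection floor. *Psmb10* lay at 5.35, 34.1 and 88.1 CPM in pre-KD and 17.5, 44.6 and 81.7 CPM in post-KD hippocampus, and at 0, 42.3 and 55.5 CPM and 8.01, 34.2 and 64.2 CPM in frontal cortex. Per length, *Psmb7* exceeded *Psmb10* by 1.12-fold in hippocampus and 1.36-fold in frontal cortex, whereas *Psmb5* exceeded *Psmb8* by 12.2-fold and 11.01-fold. *Psmb8* had 66 counts over the 20 hippocampal and 110 over the 20 frontal cortical libraries and was at 0 in 9 of 40. Its highest values were 5.53 and 7.70 CPM in pre-KD and post-KD hippocampus and 11.5 and 7.01 CPM in frontal cortex, with medians between 0.956 and 1.55 CPM. *Psmb9* had 62 and 19 counts and was at 0 in 17 of 40 libraries. Its medians were 0.655 and 1.53 CPM in hippocampus and 0.258 and 0 CPM in frontal cortex, and per length *Psmb6* exceeded it by 57.7-fold in hippocampus. No ratio is given for the frontal cortex, where 9 of the 19 counts lay in 1 library.

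None of the 3 passed the test between post-KD and pre-KD. The log2 differences were -0.08 ± 1.37, 0.24 ± 1.40 and 0.21 ± 0.37 for *Psmb8*, *Psmb9* and *Psmb10* in hippocampus and -0.61 ± 1.05, -1.08 ± 1.29 and -0.16 ± 0.34 in frontal cortex, with unadjusted p of 0.402 and above (edgeR). The 95% interval of *Psmb8* in hippocampus reached from -2.75 to 2.60, so a change was not detectable at this depth, while that of *Psmb10* reached from -0.52 to 0.93 in hippocampus and from -0.81 to 0.50 in frontal cortex. Markers of microglia, brain cells in which immune subunits are known to be expressed, summed to 215 ± 57.1 and 253 ± 44.7 CPM in pre-KD and post-KD hippocampus and 236 ± 36.4 and 243 ± 36.7 CPM in frontal cortex over 10 genes. Their part in the values of the immune subunits was not tested. In such bulk tissue, fewer cells of a type and less RNA per cell cannot be told apart.

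**Figure D4:**
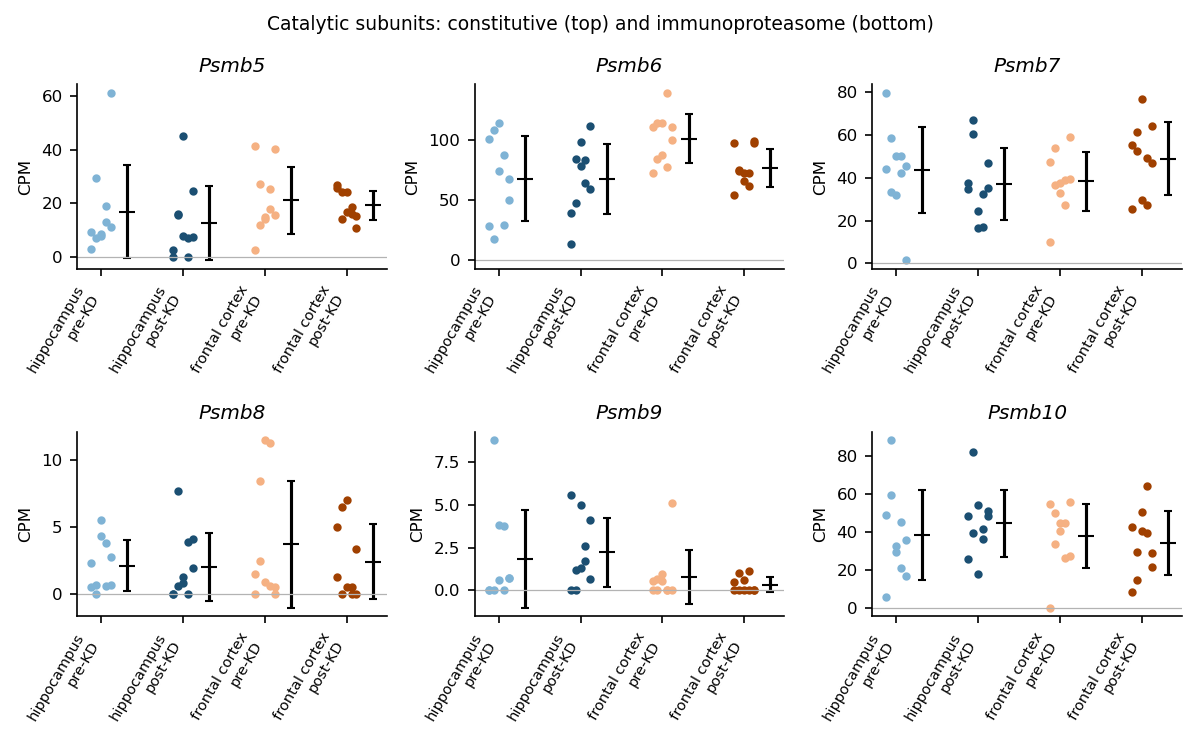
CPM of the constitutive catalytic subunits (top) and the immunoproteasome subunits that replace them (bottom) in each of 40 libraries, with mean and SD of 10 libraries (black; bars that reach below 0 reflect the spread, not negative values). *Psmb10* averages 38.5 CPM over all libraries, near *Psmb7* at 42.0, while *Psmb8* and *Psmb9* average 2.59 and 1.29 CPM, beside 17.5 for *Psmb5* and 78.1 for *Psmb6*.

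Between the regions, the share of members that passed was no higher than that of all genes tested with edgeR, and at an unadjusted p it was higher with DESeq2. *Psmc1*, an ATPase that helps open the gate of the alpha ring, was lower in the hippocampus after adjustment, the 1 member of 39 to pass, where 2.85% of 19422 genes passed (1.98% lower in hippocampus, 0.87% higher). At an unadjusted p under 0.05 there were 3 members, all lower in the hippocampus, where 10.9% of genes reached it (8.12% lower), and 13.05% of those kept by filterByExpr. These were *Psmc1*, *Psmc5* and *Psmb6*. With limma-voom *Psmc1* (p = 0.0636) and *Psmb6* (p = 0.111) no longer reached it, while *Psmb9* and *Psmd12*, higher in the hippocampus, and *Psmd7*, lower there, did beside *Psmc5*, 10.3% of members where 10.5% of all genes did. With DESeq2 7 reached it, *Psma2*, *Psma5* and *Psmd12* (higher) and *Psmb5* (lower) being added, 17.9% of members where 13.7% of all genes did. All 6 ATPases were lower by point estimate, with a median log2 difference, hippocampus minus frontal cortex, of -0.27, beside -0.02 over all members and -0.17 over all genes tested. The 4 other ATPases lay between -0.34 (*Psmc4*) and -0.01 (*Psmc6*), and *Psmc6* was above 0 with DESeq2 (0.02), with limma-voom (0.03) and without the cohort block (0.06). The median of the ATPases was -0.09 with limma-voom and -0.18 without the cohort block, with 5 of 6 lower. The median over all genes moved to -0.07 with DESeq2 and to -0.00 with limma-voom, so values near it carry no direction of their own.

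*Psmc1* lay at 82.9, 220 and 457 CPM in the hippocampus and at 126, 324 and 447 CPM in the frontal cortex (lowest, median and highest of 20). The ranges overlapped, and 14 of 20 cohorts were lower in the hippocampus (log2 difference -0.37 ± 0.10 SE, adjusted p = 0.0147, edgeR). Of its 69-base stretches 9.32% occur in another gene. Its adjusted p was 0.112, 0.190, 0.0593 and 0.104 without donor 2, 5, 6 or 7, and 0.118 without the cohort block. *Psmc5*, a further ATPase, lay at 46.1, 106 and 139 CPM in the hippocampus and at 71.9, 129 and 271 CPM in the frontal cortex, with 15 of 20 cohorts lower in the hippocampus (-0.43 ± 0.14, unadjusted p = 0.00251, adjusted p = 0.0771, edgeR). With DESeq2, with limma-voom and without the cohort block, the single member that passed after adjustment was *Psmc5* (adjusted p = 0.0330, 0.0473 and 0.0290) and not *Psmc1*. *Psmb6* lay at 13.7, 70.4 and 114 CPM in the hippocampus and at 54.3, 85.4 and 139 CPM in the frontal cortex, with 12 of 20 cohorts lower (-0.51 ± 0.18, unadjusted p = 0.00496, adjusted p = 0.127, edgeR).

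**Figure D5:**
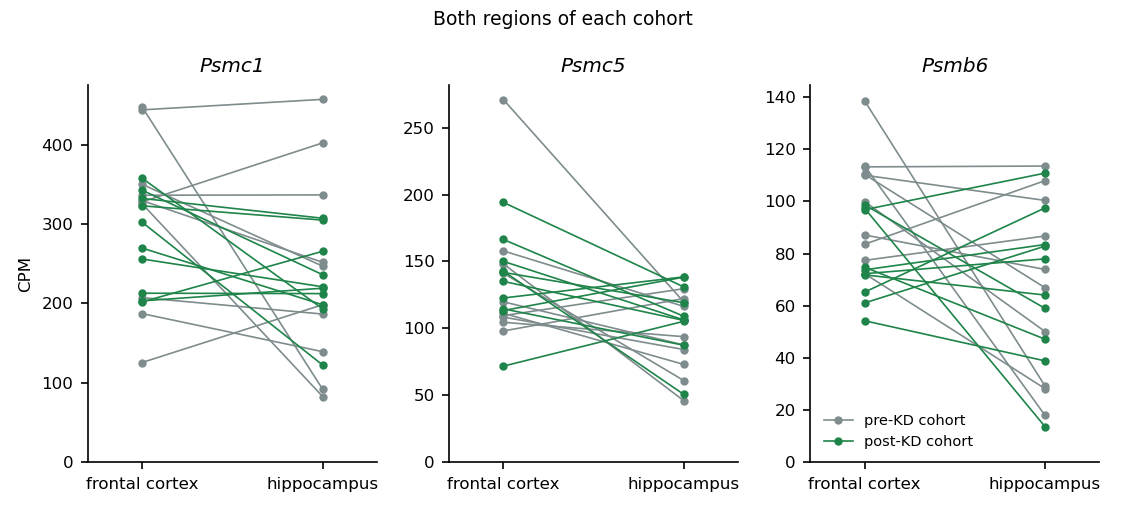
CPM of *Psmc1*, *Psmc5* and *Psmb6* in the frontal cortex and the hippocampus of each of 20 cohorts, lines joining the 2 libraries of a cohort (grey, pre-KD; green, post-KD). In 14, 15 and 12 of 20 cohorts the hippocampal value is the lower one, and the ranges of the regions overlap for all 3 genes.

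In the other direction no member passed. The 3 with the smallest p were *Psmd12*, a lid subunit, at 24.4, 64.2 and 127 CPM in the hippocampus and 16.05, 51.0 and 89.3 CPM in the frontal cortex (log2 difference 0.40 ± 0.21 SE, unadjusted p = 0.0609, adjusted p = 0.504, edgeR), *Psma2*, an alpha ring subunit, at 49.7, 84.5 and 158 CPM and 28.1, 68.8 and 122 CPM (0.25 ± 0.17, unadjusted p = 0.139), and *Psmb3*, a beta ring subunit, at 2.501, 49.7 and 84.5 CPM and 2.34, 45.5 and 87.8 CPM (0.36 ± 0.25, unadjusted p = 0.155). *Psmd12* was higher in the hippocampus in 14 of 20 cohorts and came under an unadjusted p of 0.05 with DESeq2, with limma-voom and with RLE size factors, and *Psma2* with DESeq2 (p = 0.0311). The immune subunits did not pass (*Psmb8* -0.09 ± 1.64, *Psmb9* 1.81 ± 1.31, *Psmb10* 0.27 ± 0.27), but *Psmb9* came under the unadjusted threshold with limma-voom (1.02, p = 0.0241, adjusted p = 0.329). For 14 of the 35 members averaging at least 10 CPM the interval of the regional difference lay within 0.5 log2 units of 0, among them 0 of the 3 members named lower in the hippocampus.

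Other cell types moved with the region. Of the neuronal markers, *Rbfox3* (log2 difference -0.34, adjusted p = 0.000342) and *Snap25* (-0.20, adjusted p = 0.0677, edgeR) were lower in the hippocampus at an unadjusted p under 0.05, while the other 2 of the 4 on the list gave -0.07 (*Syt1*) and 0.16 (*Slc17a7*) without passing. Of 6 endothelial markers, all below 0 by point estimate, 3 were lower at that p, as were 3 of 4 blood markers, of which all 4 lay below 0. In the other direction, 4 of 5 choroid plexus markers were higher after adjustment, summing to 489 to 4294 CPM in hippocampal and 6.98 to 583 CPM in frontal cortical libraries. Their part in the differences of *Psmc1*, *Psmc5* and *Psmb6* was not tested. The 2 regions were deposited as separate tables, and the region and any difference in their handling cannot be told apart.

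Of 47 further genes of the pathway that had been listed, 46 were tested in each region, and at an unadjusted p under 0.05 the hippocampus had 0 and the frontal cortex 4 (3 higher and 1 lower in post-KD), where 10.1% and 9.68% of all genes tested did, with 0 after adjustment in both. The activators and the inhibitor of the core (*Psme1* to *Psme4*, *Psmf1*) gave 0 of 5 in each region, the core assembly factors 0 of 6, and the transcription factors and processing enzymes that control proteasome genes 0 of 10 in hippocampus and 0 of 9 in frontal cortex. Among them *Nfe2l1*, which drives proteasome genes when activity falls, gave -0.21 ± 0.22 in hippocampus and -0.31 ± 0.18 in frontal cortex. *Sem1*, the smallest lid subunit, lay at 16.7, 27.9 and 43.7 CPM in pre-KD and 28.0, 39.9 and 63.7 CPM in post-KD frontal cortex, with 9 of 10 donors higher (0.55 ± 0.27, unadjusted p = 0.0450, adjusted p = 0.489, edgeR). Its hippocampal value was 0.46 ± 0.32.

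The remaining 3 belong to antigen presentation, a list of 10 genes. *H2-D1*, a class I heavy chain, lay at 1.05, 8.61 and 22.2 CPM in pre-KD and 4.16, 21.5 and 36.8 CPM in post-KD frontal cortex, with 7 of 10 donors higher (1.10 ± 0.49, unadjusted p = 0.0266, adjusted p = 0.363, edgeR). *Erap1*, which trims peptides for class I molecules, had 3 counts in pre-KD and 40 in post-KD frontal cortex, and *Nlrc5*, an activator of class I genes, had 23 and 1. They were at 0 in 11 and 15 of the 20 frontal cortical libraries, and *Nlrc5* had no count in the hippocampus. Between the regions, 0 of the 47 passed after adjustment (edgeR), and 4 reached an unadjusted p under 0.05 (2 higher and 2 lower in the hippocampus), where 2.85% and 10.9% of all genes did. Among them were the ubiquitin gene *Rps27a* (0.53 ± 0.19), the shuttle factor *Ubqln4* (-0.61 ± 0.25) and *Mafg* (0.43 ± 0.19), a partner of *Nfe2l1*. The remaining gene, lower in the hippocampus, is on the list of ubiquitin genes and activating enzymes.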

How the data were processed

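Libraries from the hippocampus and frontal cortex of the recipient cohorts were sequenced and processed by the authors, whose notes name FastQC 0.11.5, STAR 2.5.2a, SAMtools 1.3 and HTSeq 0.6.0 with the mouse build mm10. The deposited values are raw counts of reads per gene, in 1 table per region. The annotation release and the strand setting of counting are not given in the sources used here, and the methods name both TruSeq and a 3′ tag kit. Gene symbols and positions came from GENCODE M21 (47224 of 47643 identifiers matched), and sequences from RefSeq on GRCm38.p6.

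Counts were normalized by TMM and tested by edgeR 4.0.16 (quasi-likelihood, R 4.3.3) over genes with at least 10 counts in all, with Benjamini-Hochberg adjustment at 0.05. Post-KD was compared with pre-KD within each region, and the regions were compared over 40 libraries with a term for each cohort. DESeq2 1.42.0, limma 3.58.1 (voom with quality weights), other filters and size factors, totals without Gm42418, a donor block, a Y-linked covariate and leaving out each donor were alternatives. Intervals are 95%. p-values measure the spread between pooled cohorts. No library pair within a group was identical (0 of 180).

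Donors pair the pre-KD and post-KD cohorts by stool source. Deviations from the group means of the paired libraries correlated at -0.0280 to 0.0299 in hippocampus and -0.0564 to 0.0317 in frontal cortex. The 2 regions of a cohort came from the same mice by the methods, with correlations of -0.0231 to 0.202.

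The fits were tested on simulated data with known changes. After adjustment edgeR recovered 0% of changes of 0.5 log2 units in hippocampus and 12% in frontal cortex. For changes of 1 log2 unit it recovered 41% and 64%. For the difference between regions in the change it recovered 0% and 1% at these sizes, so that test could pass few true changes. Within a region it called unchanged genes of few counts more often than the threshold sets.

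Members and gene lists were chosen with earlier results of these data known. Named with values were the catalytic and immune subunits, members at an unadjusted p under 0.05 between conditions, members past adjustment in the difference between regions, and the 3 with the smallest p in each direction between regions. *Psma4* and *Psmb4* were added after their values were seen. Values of some list genes are not reported here.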

Additional observations from a re-analysis of the deposited data

Results flagged for a closer look

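Among 56 groups of 10 libraries, 7 held a library far from the other 9 by Dixon's criterion. For normally distributed values chance gives about 1 in 20, and this rate need not hold for genes of few counts. In pre-KD hippocampus, replicate 5 was high for *Psmb5* (61.1 CPM, the next 29.3) and for *Psmb4* (305 CPM, the next 204). *Psmc5* was high in replicate 8 of pre-KD frontal cortex (271 CPM, the next 158). *Psmb10* had no count in replicate 1 of pre-KD frontal cortex (0 CPM, the next lowest 25.99). The others rest on few counts: *Psmb8* in replicate 2 of post-KD hippocampus (7.70 CPM, 13 counts), *Psmb9* in replicate 2 of pre-KD hippocampus (8.80 CPM, 15 counts) and *Psmb9* in replicate 10 of pre-KD frontal cortex (5.11 CPM, 9 counts).

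The post-KD change of *Psmb4* differed between hippocampus and frontal cortex by -0.62 on the log2 scale (unadjusted p = 0.0266, adjusted p = 1, edgeR). Without donor 5, whose pre-KD hippocampal library was high for *Psmb4*, this difference was -0.50 (unadjusted p = 0.0822, edgeR). It was -0.49, -0.55 and -0.54 without donor 1, 2 or 6.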

How the results depend on the processing

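Of 974 values of named members under alternatives, 894 kept their direction and their side of the threshold, 44 changed sign, 20 newly passed and 16 no longer passed, and the cause was not tested. The threshold in this tally was an unadjusted p under 0.05, except between regions, where it was an adjusted p under 0.05. Between regions, moves across the unadjusted threshold, such as those of *Psmb6*, *Psmb9* and *Psmd12* with limma-voom, are therefore counted as kept. The count of members at an unadjusted p under 0.05 in the hippocampus was 1 with DESeq2 (3.69% of all genes), 3 with limma-voom (7.69% of members, 5.49% of all genes) and 0 to 2 leaving out a donor, and the median log2 difference ran from -0.053 to 0.032 leaving out a donor. In the frontal cortex the count was 1 to 3 leaving out a donor. There *Psma6* came under the threshold with the Y-linked covariate and without donor 6 or 7. So did *Psmb3* without donor 4, *Psmc3ip* without donor 8 and *Psma2* without donor 9. For the difference between regions in the change it was 2 with DESeq2 (4.89% of all genes) and 0 to 2 leaving out a donor. Between regions it was 7 with DESeq2 (13.7% of all genes) and 3 to 5 leaving out a donor, and 0 to 1 passed after adjustment. With the donor as a replicate block the counts were 0 in hippocampus and 2 in frontal cortex, and no call on a member changed. Without the cohort block, the member past adjustment between regions was *Psmc5* in place of *Psmc1*.

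Changes of sign were seen for values near 0 or at few counts. In the hippocampus, *Psmb6* was 0.019 with DESeq2 and with RLE size factors, 0.017 with filterByExpr, 0.040 with the replicate block and 0.0027 with the Y-linked covariate, and *Psmc1* was 0.072 with the block. Leaving out a donor gave -0.15 to 0.14 for *Psmb6*, -0.98 to 0.11 for *Psmb5*, -0.73 to 0.25 for *Psmb8*, -0.16 to 1.06 for *Psmb9* and -0.19 to 0.095 for *Psmc1*. In the frontal cortex, *Psmb5* was 0.37 with limma-voom and 0.019 with the block, and *Psmc5* was 0.037 and 0.012. Leaving out a donor gave -0.083 to 0.18 for *Psma4*, -0.33 to 0.054 for *Psmb5*, -1.59 to 0.27 for *Psmb9*, -0.35 to 0.028 for *Psmb10* and -0.13 to 0.17 for *Psmc5*. For the difference in the change, *Psmb8* was 0.093 with limma-voom and 0.53 without the cohort block, *Psmc1* was -0.086 with limma-voom, and leaving out a donor gave -0.93 to 0.71 and -0.10 to 0.25. Between regions leaving out a donor gave -0.29 to 0.054 for *Psmb7* and -0.56 to 0.32 for *Psmb8*.

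Over all genes, calls at an unadjusted p under 0.05 ran from 221 to 2931 in hippocampus and 407 to 3035 in frontal cortex between filterByExpr and no filter, beside 1762 and 1731. Adjusted calls reached 1291 in hippocampus with no filter and 1935 between regions without the cohort block, beside 1 and 554. At their depths the 95% intervals of *Psmb8* and *Psmb9* in edgeR reached more than 1 log2 unit to each side of 0 for post-KD against pre-KD in both regions.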
